A study of Xenopus laevis with 4 samples.

Results

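Chromosomes 8L and 8S of the frog Xenopus laevis carried 5962 of the 61137 regions that the depositors list as bound by ETS2 in both of their ChIP libraries, 3287 on 8L and 2675 on 8S. The members are all common regions on either chromosome, and the rule uses position and no peak value. Xenopus laevis is an allotetraploid: its L and S subgenomes come from different ancestral species, so that each L chromosome has an S partner (a homeologue) with related gene content. ETS2 belongs to the ETS family of transcription factors, which bind DNA at sites built around a short purine-rich core and are known as nuclear effectors of FGF and MAP kinase signalling, which patterns mesoderm in the gastrula. Inversions and moves of chromosome segments change the order of genes while the genes and the regulatory DNA beside them stay together, so a landmark such as a run of bound regions can mark where a segment lies.

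The ChIP libraries, 2 in number, were made with a FLAG antibody, and 2 input libraries were made with no antibody. All 4 came from whole embryos at stage 11.5, in the middle of gastrulation, that had been injected with 750 pg of mRNA for ETS2 with a triple FLAG tag, so the inputs carry the tagged protein too and the binding is that of injected ETS2. Embryos without the tagged protein were not analysed here. Library 1 bears the letter A in the labels and library 2 the letter C; whether they came from separate clutches is not stated, and the spread between them may be technical. Each has 1 deposited peak list, with 69083 peaks for library 1 and 157105 for library 2, and the read depth behind them is unknown. The sources used here do not state the genome build, no sequence was read, and no gene was assigned to a region.

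Both chromosomes were densely bound and nearly alike in density. Chromosome 8L carried 27.4 common regions per Mb over 120.1 Mb, and 8S carried 27.0 per Mb over 98.99 Mb, with lengths taken to the end of the last peak. The other 16 chromosomes carried 18.7 (5S) to 27.6 (9_10L) per Mb, with a median of 21.2, so that 8L and 8S held places 2 and 3 among the 18. The 8L to 8S ratio of regions per Mb was 1.01, which ranks 8th of the 9 L and S pairs, where the other pairs ran from 0.980 to 1.18. In the list of library 1 alone the densities were 31.1 peaks per Mb on 8L and 30.3 on 8S, a ratio of 1.03, and in that of library 2 they were 66.2 and 66.3, a ratio of 0.998. The libraries thus fell on either side of equality, and the ratio over all common regions lay between them. Among common regions above the median strength the ratio was 1.05, outside the range of the libraries. The 1.23 times higher number of regions on 8L went with its 1.21 times greater length.

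Regions were closely spaced on both chromosomes. Short gaps go with the high density given above, and whether spacing differs beyond density was not tested. The gap between neighbouring regions had a median of 13.5 kb on 8L (quartiles 3.87 and 39.8 kb) and 15.4 kb on 8S (4.25 and 42.2 kb), against 18.3 kb over all 18 chromosomes. Of the 3286 gaps on 8L, 946 (28.8%, exact 95% binomial interval 27.2 to 30.4%) were under 5 kb. Of the 2674 gaps on 8S, 737 (27.6%, 25.9 to 29.3%) were under 5 kb, and over the 18 chromosomes the share was 25.6%. On 9_10L and 9_10S it was higher than on 8L and 8S, at 29.0 and 28.9%. The intervals of 8L and 8S overlap. Intervals of this kind cover counting error only, and neighbouring regions are not independent. The median gap on 8L was the shortest of all 18 chromosomes. Where gaps under 5 kb join regions into groups, 1744 regions of 8L (53.1%) and 1479 of 8S (55.3%) stood alone. Groups of 6 or more regions numbered 22 on 8L (4.53% of its regions) and 14 on 8S (3.70%). Such groups were not counted on the other chromosomes, so whether these numbers are unusual was not tested. The largest group on 8L had 10 regions within 20.5 kb, and the largest on 8S had 12 within 17.0 kb.

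Long stretches without a common region were present on both. Stretches of 200 kb or longer made up 24.6% of 8L, in 97 stretches, and 21.6% of 8S, in 67 stretches, against 23.1 to 33.4% on the other chromosomes. The longest on 8L ran for 623 kb, from 39987631 to 40610761. It was followed by 581 kb from 89504998 to 90085573 and 569 kb from 27228260 to 27797261. On 8S the longest was 950 kb, from 66691304 to 67640900, then 837 kb from 52821284 to 53658148 and 825 kb from 14511534 to 15336682. The longest stretch of 8S was thus longer than that of 8L, although 8S is the shorter chromosome. None of these 6 stretches contained a peak of library 1, and each contained 8 to 18 peaks of library 2, so none of them was empty sequence throughout. The lack of library 1 peaks largely follows from the definition. Common regions held 96.9% of library 1 peaks on 8L and on 8S, against 41.4 and 40.8% of library 2 peaks.

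Widths differed little. The median width was 475 bp on 8L (quartiles 361.5 and 642.5) and 464 bp on 8S (356 and 640.5), against 458 bp over the 18 chromosomes. The 8L median was the highest of the 18, where the chromosomes other than 8L and 8S ran from 442 to 473 bp. The difference between 8L and 8S was 11 bp. Median peak width was 231 bp on 8L and 225 bp on 8S in library 1, and 292 and 287 bp in library 2. The libraries thus differed by 61 and 62 bp, on both chromosomes alike, which does not measure the spread of the 8L to 8S difference. Of the regions of 8L, 212 (6.45%) were at least 1 kb wide, against 141 (5.27%) on 8S and 5.67% over the 18 chromosomes. The common list is a merge: in all 5962 regions the bounds were the outermost bounds of the peaks inside, and 287 regions of 8L (8.73%) and 197 of 8S (7.36%) merged more than 1 peak of library 1, against 7.68% over the 18 chromosomes. The widest region of 8L, from 770931 to 774015, spanned 3085 bp and held 4 library 1 peaks. The next, from 47282465 to 47285318 (2854 bp), held 4, and that from 118682145 to 118684817 (2673 bp) held 3. On 8S the widest were 2138 bp (44168620 to 44170757, 4 library 1 peaks), 2120 bp (56940673 to 56942792, 3 peaks) and 2100 bp (26677140 to 26679239, 3 peaks). Of these 6 widest regions, 5 had a strength of 86.0 to 99.6, and the widest of 8S had 59.6 (strength is a percentile of peak value within a list, as a mean of both libraries).

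**Figure D1:**
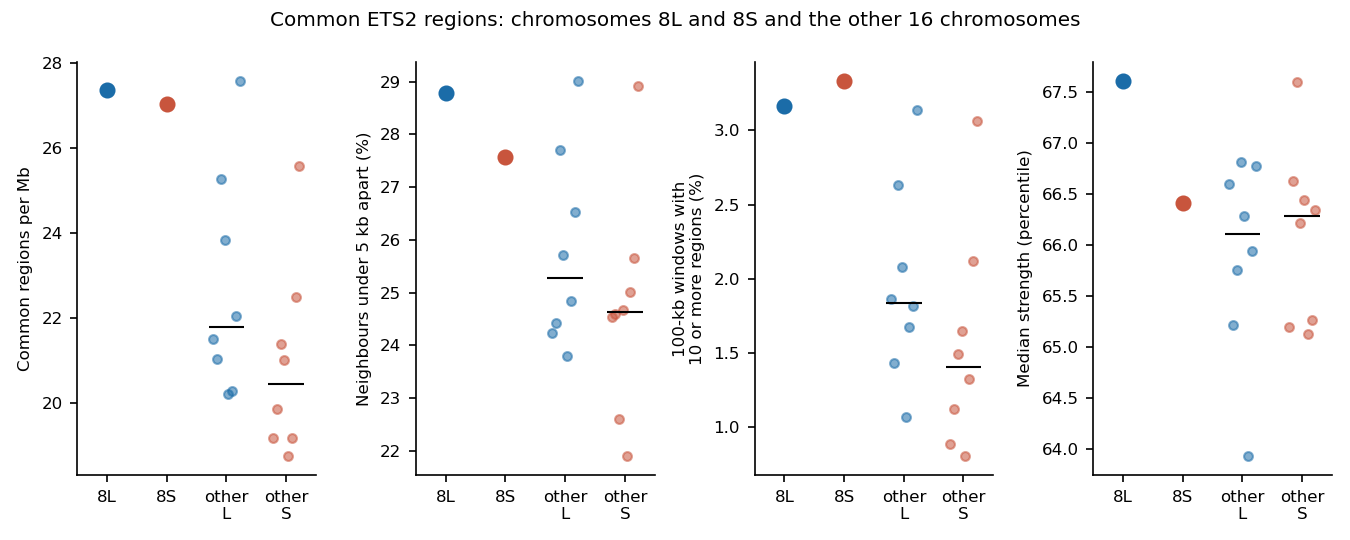
Common regions per Mb, share of neighbouring regions under 5 kb apart, share of 100-kb windows with 10 or more regions, and median strength, with 1 point per chromosome and a line at the median of the other 8 L or S chromosomes. Chromosomes 8L (27.4 per Mb) and 8S (27.0) lie near the top of the first panel, and the strength axis spans only a few percentile points.

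Strength here means the percentile of the highest peak of a region within its own library's list, averaged over both libraries. It rests on the value the authors gave each peak, read as −log10 of a p or q value, and only ranks within a list were used. Median strength was 67.61 on 8L and 66.4 on 8S, against 66.1 over the 18 chromosomes. These values held places 1 and 8 among the 18, and the chromosomes other than 8L and 8S ran from 63.9 (6L) to 67.59 (3S). The order of 8L over 8S was the same in each library, with median percentiles of 56.5 on 8L and 54.6 on 8S in library 1 and 81.3 and 79.97 in library 2, but the difference is small beside the quartiles, which were 48.7 and 84.3 on 8L and 47.4 and 83.7 on 8S. Strength of 90 or more was reached by 517 regions of 8L (15.7%, exact 95% interval 14.5 to 17.0%) and 396 of 8S (14.8%, 13.5 to 16.2%), against 14% over the 18 chromosomes. Across regions, the percentiles of the libraries went together (rank correlation 0.78 on 8L and 0.78 on 8S, over 3287 and 2675 regions of the same libraries).

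The strongest regions of 8L lay mostly near its ends, at 3.64, 17.7, 94.3, 97.5 and 98.9% of its length. Those of 8S were more spread out, at 8.57, 16.4, 31.9, 35.7 and 94.2%. These are places of 5 regions per chromosome only. Over all regions of 8L, the first and last 5% held 300 and 297, with median strengths of 68.7 and 68.6, against 67.5 in between. On 8L the strongest region was at 21219799 to 21220907 (1109 bp). Its peak value was 130.9 in library 1 and 298 in library 2, which placed it second among all common regions. It was followed by the region at 113343528 to 113344453, with peak values of 109 and 257, and by that at 118776364 to 118777279, with 130.8 and 214. The next, at 117102710 to 117103448, had peak values of 101.3 and 223, and the last of the 5, at 4370895 to 4371712, had 93.6 and 272. On 8S the strongest was at 93280459 to 93281390 (932 bp). Its peak value was 139 in library 1 and 280 in library 2, the highest strength of all common regions. The next were at 35359943 to 35360893, with peak values of 109 and 264, at 31607389 to 31608175, with 117 and 232, and at 8479555 to 8480451, with 118 and 221. The last of the 5, at 16228884 to 16229693, held the highest library 1 value of the series, 149.7, beside 213 in library 2, and its nearest neighbour was 170 kb away. These strongest regions were wide, from 739 to 1109 bp, all above the upper quartile of width on 8L (642.5 bp) and on 8S (640.5 bp). Picked out after their values were seen, the second strongest region of 8L lay at 94.3% of its chromosome and the strongest of 8S at 94.2% of its own, with widths of 926 and 932 bp; their sequences were not compared.

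Regions with a close neighbour were somewhat stronger than isolated ones on both chromosomes. On 8L the 1543 regions with another within 5 kb had a median strength of 69.1, the 1481 with the nearest at 5 to 50 kb had 67.3, and the 263 at 50 kb or more had 63.4. On 8S the same classes held 1196, 1300 and 179 regions, with median strengths of 67.6, 66.4 and 62.6. Median width moved the same way, at 494, 467 and 421 bp on 8L and 482.5, 454.5 and 424 bp on 8S, and wider regions had higher strength (rank correlation 0.60 on each chromosome). Width and strength are taken from the same peaks, and on the other 16 chromosomes the correlation was 0.57 to 0.61. The part of width in the order of strength by spacing was not tested. Along the chromosomes, medians over steps of 5% of the length ranged from 60.03 (85 to 90% of 8L) to 72.03 (15 to 20%) on 8L and from 53.7 (45 to 50% of 8S) to 72.7 (55 to 60%) on 8S, with no steady trend from start to end.

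**Figure D2:**
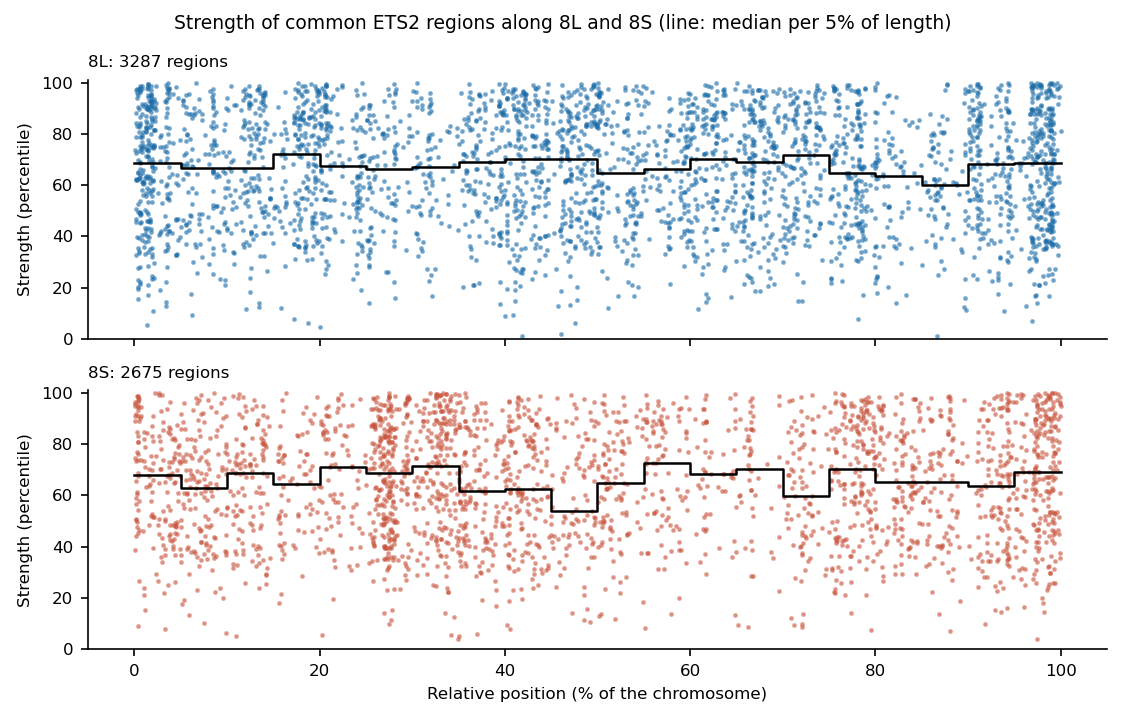
Strength (percentile, mean of both libraries) of each of the 3287 regions of 8L, above, and the 2675 of 8S, below, against relative position, with the median per 5% of length as a line. Strong and weak regions occur together in nearly every part of both chromosomes, and the vertical bands of points are the dense stretches.

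Dense stretches were most marked at both ends of 8L and, on 8S, at its right end and near 27% of its length. Of the 1202 windows of 100 kb on 8L, 38 (3.16%) held 10 or more regions, and of the 990 on 8S, 33 (3.33%) did, against 1.83% over the 18 chromosomes. These windows held 485 regions of 8L (14.8%) and 397 of 8S (14.8%). The share of such windows was close to that on 9_10L (3.14%) and 9_10S (3.06%), so it is not particular to 8L and 8S. Windows without any region made up 23.0% of 8L and 21.3% of 8S, against 26.4%. The shares of dense and of empty windows are likewise tied to density and are not separate evidence of clustering. The densest window of 8L, at 118900001 to 119000000, held 26 regions and lay at 99.0% of the chromosome. It was the last of 4 dense windows in a row, which held 62 regions with its own 26 included. The next densest of 8L were at 109300001 to 109400000 (20 regions), 80100001 to 80200000 (19), 700001 to 800000 (17), and, tied with 16 regions, 1700001 to 1800000 and 2100001 to 2200000. On 8S the densest were neighbours, at 27100001 to 27200000 with 20 regions and 27200001 to 27300000 with 19. They were followed by 33300001 to 33400000 (17), 93300001 to 93400000 (16) and 98200001 to 98300000 (15). Dense windows were not all strong ones: median strength was 92.5 in the window of 8L at 2100001 and 53.0 in that of 8S at 98200001. The tightest run of 10 neighbouring regions spanned 20.5 kb on 8L, from 80151982 to 80172525, and 11.8 kb on 8S, from 27198347 to 27210102, where region strengths ran from 9.78 to 99.8.

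The places of these stretches set the chromosomes apart. The first 2% of 8L held 197 regions, or 82.0 per Mb, whereas the first 2% of 8S held 74, or 37.4 per Mb. A density like that of the start of 8L stood on 8S at 26 to 28% of its length, with 169 regions and 85.4 per Mb, where 8L at 26 to 28% held 32 and 13.3 per Mb. The right ends were alike: the last 3% held 239 regions on 8L, or 66.3 per Mb, and 196 on 8S, or 66.0 per Mb. In steps of 20% of the length, 8L had 31.96, 19.9, 28.2, 29.5 and 27.2 regions per Mb, and 8S had 25.7, 36.8, 23.0, 18.9 and 30.7. The stretch from 20 to 40% was thus the sparsest of 8L and the densest of 8S. The bounds of 2, 3, 26 and 28% were picked after the profiles were seen.

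Whether the profiles match after part of 8S is turned round was examined on counts in 100 equal bins, compared by Spearman's rank correlation as a description without a p-value, because bins of a chromosome are not replicates. With 8S as deposited the correlation was -0.01, below all of the other 8 pairs (0.03 to 0.44). With the whole of 8S reversed it was 0.16, above those pairs under the same reversal (-0.11 to 0.08). Of 16 combinations of 8L or 8S with a chromosome that is not its partner, 2 were higher under the same reversal (up to 0.25). When each of 4186 stretches of 10 or more bins of 8S was reversed in turn, the highest correlation was 0.33, for the stretch from 2 to 96% of 8S, which is nearly the whole chromosome. Such a search raises any correlation. The other 8 pairs reached 0.35 to 0.71 by it, and the 16 combinations of chromosomes that are not partners reached 0.22 to 0.39, of which 4 exceeded the value of 8L with 8S. Reversal of a single stretch therefore gave no match that set the partner apart from other chromosomes.

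Gene order on 8S differed from that on 8L by more than a single reversal. A RefSeq gene table of assembly Xenopus_laevis_v10.1 was used for gene names and their order only, since the build of the regions is not stated. Whether that build lays out 8S in the same way could not be checked. The gene table names 792 genes as L and S versions on 8L and 8S. In 8L order these fell into 3 blocks. The first (A, 441 genes) followed the second on 8S and kept its direction in the main. The second (B, 205 genes) came before A on 8S and was turned round from its first gene to its last, with all 204 neighbouring steps reversed. The last (C, 146 genes) held the right end of both chromosomes in the same order, with all 145 steps alike. Exceptions lay at the left end, where the 9 genes up to uba1 came first on both chromosomes and the next 8, from ebp to gata1, lay reversed between A and C on 8S; gata1 encodes a transcription factor of red blood cell formation. Smaller reversals lay within A, where 84 of 440 steps ran backward. The rank correlation of gene order was 0.27 for pair 8, second lowest after pair 3 (0.20), and 0.97 or more in the other 7 pairs. That measure says little about local reversals. Steps that ran backward made up 36.4% in pair 8, 77.8% in pair 3 and 2.13% (pair 1) to 32.6% (pair 2) in the others. Reversed stretches of genes are thus not particular to pairs 3 and 8. The genes named here were picked out after the order was seen.

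**Figure D3:**
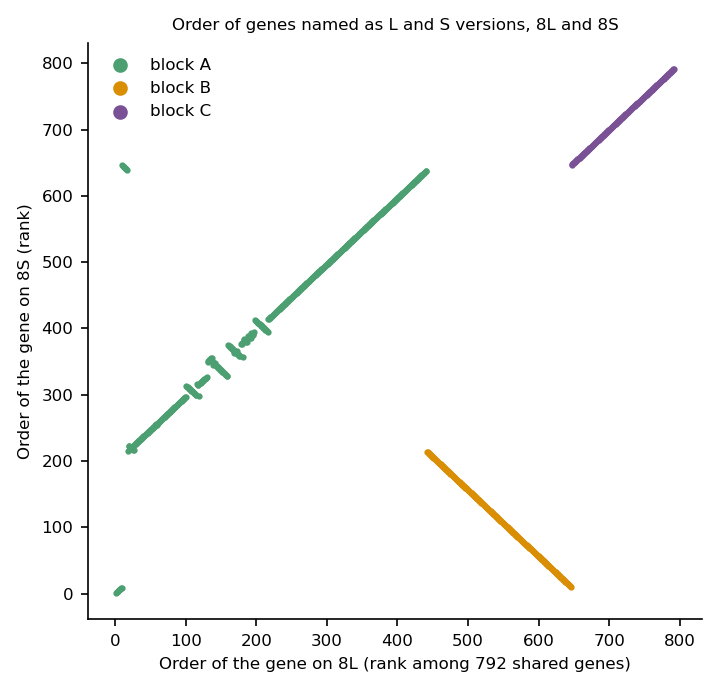
Order of the 792 genes named as L and S versions in the RefSeq table of assembly v10.1, by rank on 8L (horizontal) and on 8S (vertical), coloured by block. Block B (205 genes) descends, and blocks A (441) and C (146) ascend, with A displaced upward by the length of B.

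The region profiles came closer together when 8S was laid out in that gene order, in a comparison added after the order was seen. The bounds of the blocks, unknown in the build of the files, were searched in steps of 4% of each chromosome, and each block of 8S was stretched to the length of its partner. With B reversed and placed after A, the highest correlation was 0.49. The same freedom in other layouts gave 0.37 with the blocks as they stand, 0.42 with B reversed in place and 0.47 with B moved and not reversed. Chromosomes that are not partners of 8L or 8S reached 0.25 to 0.45 in the gene-order layout, all 16 below 8L with 8S. With B reversed in place all 16 were lower as well (highest 0.414, against 0.418 for 8L with 8S). In the layout with B moved and not reversed, 1 of the 16 reached 0.469 and 8L with 8S reached 0.467. Of the other 8 pairs, 3 exceeded pair 8 in the gene-order layout, with a range of 0.38 to 0.51, so the height of the value is not particular to pair 8. With 200 bins the value was 0.34, at bounds of 16 and 40% on 8L and 32 and 56% on 8S. Block C was then the largest on 8L, although it holds the fewest genes (146). With 50 bins the value was 0.57, at bounds that leave block C empty (B ends at 100% of 8L), so that this value is for A and B alone. In each case 1 of the 16 chromosomes that are not partners was higher.

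**Figure D4:**
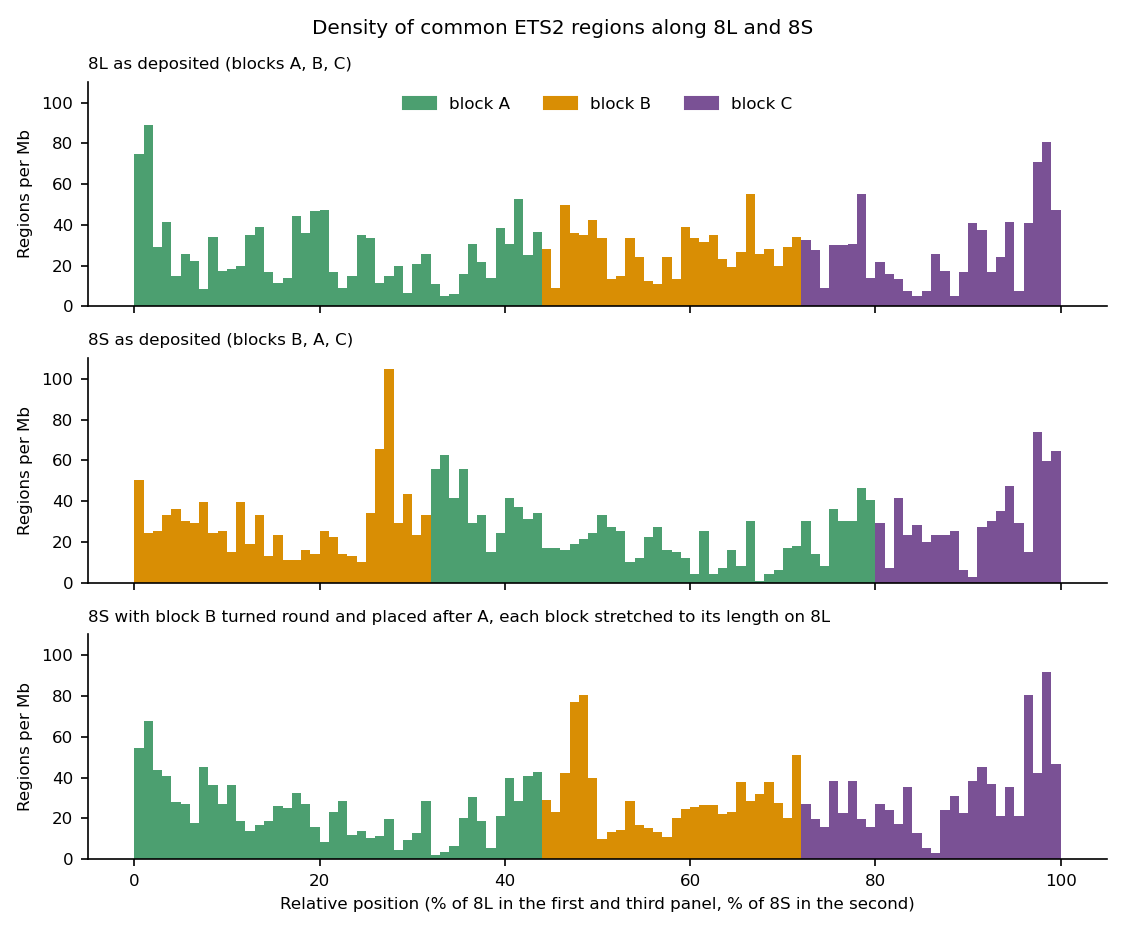
Common regions per Mb in 100 bins of 8L, of 8S as deposited, and of 8S with block B turned round and placed after block A, at the bounds of highest correlation. The dense right ends line up without change, and the peak of 8S at 26 to 28% falls in block B at these bounds.

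At the bounds of highest correlation, A was 0 to 44% of 8L and 32 to 80% of 8S, B was 44 to 72% of 8L and 0 to 32% of 8S, and C was the remainder of each. A, B and C thus took 44, 28 and 28% of 8L, where the gene blocks held 55.7, 25.9 and 18.4% of the shared genes. A share of genes is not a share of length, so whether these bounds match the gene blocks could not be checked. Block A held 1421 regions on 8L and 1144 on 8S (26.9 and 24.1 per Mb), B held 938 and 924 (27.9 and 29.2 per Mb), and C held 928 and 607 (27.6 and 30.7 per Mb). Within blocks the correlation was 0.39 over the 44 bins of A, 0.63 over the 28 bins of B and 0.61 over the 28 bins of C. With that block of 8S turned the other way it was 0.13, 0.35 and 0.02. All 3 blocks were more alike in the gene-order direction, and the bounds had been chosen on these bins. The bound between B and A on 8S is loose, with the other bounds searched again at each place. Placed at 28% it gave 0.46, at 24% 0.38 and at 12% 0.42, against 0.49 at 32%. At 40% it gave 0.46 with no block C. The dense stretch at 26 to 28% of 8S lies within this range of bounds. Whether that stretch is the counterpart of the dense start of 8L, or of part of it, or belongs to B cannot be told apart here. In the gene order the start of 8L did not move with A as a single piece. The genes up to uba1 (rank 9) stayed first on 8S. Those from ebp to gata1 (ranks 10 to 17 on 8L) lay at ranks 639 to 646 on 8S. Block A met B on 8S at mbd1 (rank 215 of 792). Where these genes lie in the build of the regions is unknown.

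**Figure D5:**
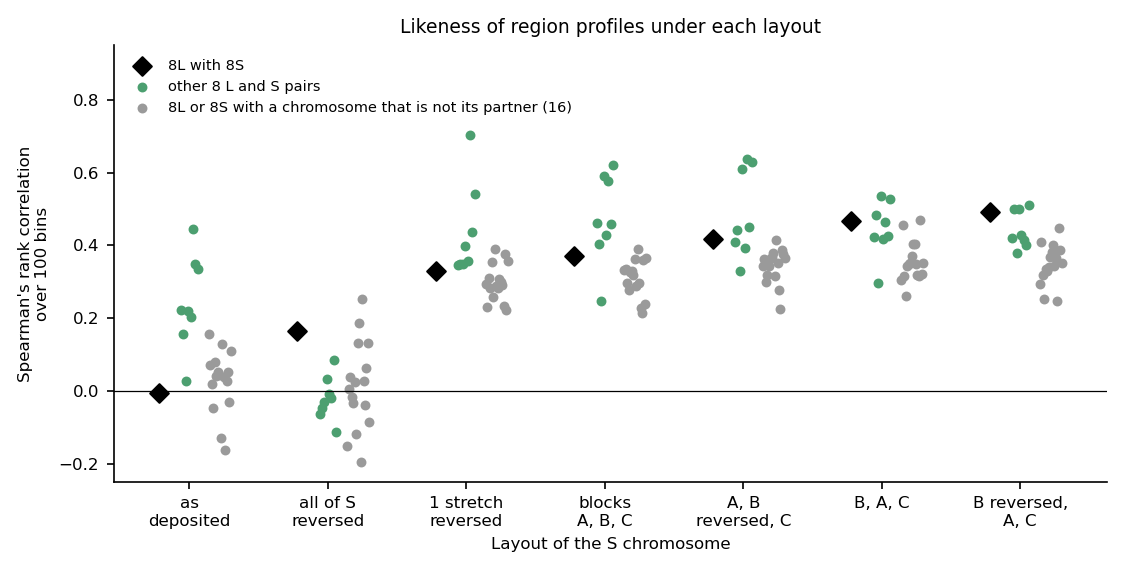
Rank correlation over 100 bins of 8L with 8S (diamonds), of the other 8 L and S pairs and of 16 combinations of 8L or 8S with a chromosome that is not its partner, under 7 layouts of the S chromosome. The diamond stands at -0.01 as deposited and at 0.49 where block B of 8S is turned round and placed after block A to follow 8L, where all 16 grey points lie lower.

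Peaks outside the common list were examined for 8L with 8S only. Library 2 had 4655 such peaks on 8L and 3886 on 8S (38.7 and 39.3 per Mb), and library 1 had 115 and 93. The profiles of the library 2 peaks gave a correlation of -0.07 as deposited, 0.10 with all of 8S reversed and 0.47 in the gene-order layout, at bounds of 44 and 68% on 8L and 36 and 80% on 8S. When those bounds were applied to the common regions, the correlation was 0.34. The block search on these library 2 peaks was not run in the other pairs, in chromosomes that are not partners or in the other block layouts. The value of 0.47 is the highest of a search and has no comparison. The part of gene density in these profiles was not tested.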

How the data were processed

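Immunoprecipitated and input DNA of stage 11.5 embryos was sequenced by the authors, with Bowtie2 2.2.3 and MACS2 named in the submitters' processing notes, without roles or settings. Per the file layout, the deposited lists give a start, an end and, for each library, a peak value, which the files do not name and whose range fits −log10 of a p-value or of a q-value; the common list gives coordinates only, as a merge of overlapping peaks. The authors deposited positions counted from 0, printed here counted from 1. The peak value was turned into a percentile within its own list; the strength of a region is the mean over both libraries of its highest overlapping peak (at least 1 bp).

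Densities used the end of the last peak as length. Profiles counted region midpoints in 100 bins. The 3-block search used steps of 4%, blocks A and B of at least 8%, C of any length or empty, and partner blocks of which the shorter was at least 60% of the longer in relative length. Intervals are exact (Clopper-Pearson). The searches were run on simulated partners drawn from the same profile, with the 3-block bounds reported here planted. Recovery of bounds in partners as unlike as 8L and 8S was not tested. The members, lists and measures were chosen with earlier results of these data known. Named regions are, per chromosome, the 5 strongest, 3 widest, 5 densest windows with ties, 3 longest empty stretches and the tightest run of 10. No test across samples was possible with 1 list per library; inputs have no list of their own. Motif and sequence analyses were not run. Python 3.11.15, numpy 2.4.6, scipy 1.17.1, pandas 2.3.3 and matplotlib 3.10.9 were used.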

Additional observations from a re-analysis of the deposited data

How the results depend on the processing

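Values are compared with the SD of the 2 single-library lists, a measure that rests on 2 values. The 3-block correlation moved by that SD or more in 13 of 13 settings, and the 1-stretch correlation in 11 of 13. Those SDs were as narrow as 0.0013 and 0.013, so that even a small change counts as moved. The 3-block settings include the other layouts. The share of dense windows on 8L did so in 1 of 8 settings, where the SD itself was as wide as 14.8 percentage points. The 8L to 8S density ratio was 0.998 to 1.03 in single libraries and 1.05 among regions above the median strength. The share of close neighbours was 35.7 to 44.9% on 8L and 33.4 to 43.3% on 8S in single libraries, 19.4% and 16.4% above the median strength, 18.1% and 18.1% with peaks that cover 50% of each other, 17.0% and 15.4% under 2 kb and 58.8% and 56.4% under 20 kb. Median width was 231 to 292 bp on 8L and 225 to 287 bp on 8S in single libraries and 577 and 560.5 bp above the median strength. Windows with 10 or more regions were 4.74 to 25.6% on 8L and 4.85 to 23.7% on 8S in single libraries, 0.50% and 0.61% above the median strength and 0.42% and 0.40% with mutual 50% cover, so this share depends on the list.

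With 8S as deposited the correlation was -0.04 to 0.01 in single libraries, 0.065 with mutual 50% cover, -0.069 for library 2 peaks outside common regions, -0.075 without the densest 5% of bins and -0.11 without the end bins. With all of 8S reversed these last 3 gave 0.097, 0.075 and 0.12, and 50 and 200 bins gave 0.29 and 0.11. With 1 stretch reversed it was 0.35 to 0.36 in single libraries, 0.30 above the median strength, 0.38 with mutual cover, 0.35 for library 2 peaks outside common regions, 0.40 and 0.25 with 50 and 200 bins, 0.28 without dense and 0.28 without end bins, and 0.35 and 0.27 where the stretch was chosen on strong or weak regions and applied to the others. The 3-block layout, all of whose settings were added after the data were seen, gave 0.46 in either library alone, 0.44 above the median strength, 0.57 with mutual cover, 0.47 for library 2 peaks outside common regions, 0.57 and 0.34 with 50 and 200 bins, 0.37, 0.42 and 0.47 in the other layouts, 0.34 with bounds from library 2 peaks outside common regions, and 0.42 and 0.28 with bounds from strong or weak regions applied to the others. The bounds moved with the bin size, to 68% of 8L and 40% of 8S with no block C for 50 bins. For 200 bins they moved to 16 and 40% of 8L and to 32 and 56% of 8S. No paired analysis was possible because the inputs have no list of their own and nothing was tested between ChIP and input samples. Unknown depth limits what absence from the library 1 list means.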
